A study of Mus musculus with 6 samples.

Results

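Zeb1 and Zeb2 are paralogous zinc finger transcription factors that bind E-box-like DNA sites and mostly repress transcription through corepressors. The set described here holds these 2 genes and 8 genes of the corepressor machinery, 10 genes in all of the 23793 loci in the deposited table. Members were found by symbol in the table's gene column, and each matched exactly 1 locus. Zeb2 shares its locus with Mir5129, a microRNA gene that lies inside it.

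The RNA came from the cerebellum of mice at postnatal day 0, with 3 libraries in each of 2 groups. Control animals were Zeb2 f/+; hGFAP-cre and conditional knockout (cKO) animals were Zeb2 f/f; hGFAP-cre. Both groups carried Cre under the human GFAP promoter, which is active in neural progenitors and glia, and the controls already carried 1 floxed allele, so no group is wild type. Cells outside that lineage, such as microglia and endothelium, keep intact alleles in either group, and neither the floxed exon nor the number of animals per library is labelled.

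As background, CtBP1 and CtBP2 are dimeric corepressors that bind short peptide motifs in Zeb proteins and bring in histone methyltransferases, histone demethylases and deacetylases. NuRD (nucleosome remodelling and deacetylase) joins a Chd helicase that moves nucleosomes with the deacetylases Hdac1 and Hdac2, the scaffold Mta proteins and the histone-binding Rbbp proteins. Zeb2 is known to recruit NuRD through its amino terminus. In the developing cerebellum Zeb2 is expressed in the glial lineage, among other cells. Zeb transcripts are classical targets of the miR-200 microRNA family, which share their seeds, the bases at positions 2 to 8 that pair with a target.

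Mature miR-200 sequences from RefSeq (GRCm38.p6) are shown because the Zeb genes held the most matches to their seeds among the members. Capitals mark the seed. The family has 2 seeds, which differ by a single base.

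miR-200b-3p: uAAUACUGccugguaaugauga
miR-200c-3p: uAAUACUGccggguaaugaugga
miR-429-3p: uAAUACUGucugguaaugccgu
miR-200a-3p: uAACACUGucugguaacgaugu
miR-141-3p: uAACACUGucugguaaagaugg

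Seed matches were counted in the 3′ UTR of each member, taking the longest annotated one per gene in GENCODE M21. The 4941 bases of the Zeb2 3′ UTR held 9 matches, 5 to the first seed and 4 to the second. The 2401 bases of the Zeb1 3′ UTR also held 9, with the same split. Over 21020 genes, 25.8% had at least 1 match, and only 3 had 9 or more: both Zeb genes and D10Wsu102e, whose annotated UTR spans 122583 bases. Among the other 8 members, Ctbp2 and Rbbp4 had 1 match each and the remaining 6 had 0. Their UTRs ran from 505 bases (Hdac1) to 2992 bases (Rbbp4), so these counts come from unequal lengths. Per kilobase, Zeb1 had 3.75 matches, Zeb2 1.82, Ctbp2 1.69 (1 match in 593 bases) and Rbbp4 0.334, beside 0.258 over all UTRs. The first Zeb2 match to each seed is printed with the match in capitals, at bases 393 to 399 and 209 to 215 of the UTR.

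Zeb2 match to the miR-200b seed: ccatacatCAGTATTttattatt
Zeb2 match to the miR-200a seed: attttgtaCAGTGTTaaggccta

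The loci of the 5 microRNA hairpins gave almost no signal. Of their 30 values, 29 were listed at 0, and Mir200b was listed at 304 FPKM in cKO 1 alone. FPKM is the number of sequenced fragments per kilobase of transcript and scaled to the library's mapped total, and at so short a locus 1 or a few fragments give a large value.

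Upstream sequence is shown for the 3 members with an entry in the RefSeq promoter table whose control and cKO values did not overlap, Zeb2, Chd4 and Rbbp4. Each run covers the 250 bases before the most upstream annotated start, in transcript orientation on GRCm38.p6. Capitals mark CACCT, the core of the site that Zeb proteins bind, on either strand (AGGTG when read from the other strand). CACCTG, an E-box that contains CACCT, was counted separately.

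Zeb2, chr2:45117443-45117692, minus strand: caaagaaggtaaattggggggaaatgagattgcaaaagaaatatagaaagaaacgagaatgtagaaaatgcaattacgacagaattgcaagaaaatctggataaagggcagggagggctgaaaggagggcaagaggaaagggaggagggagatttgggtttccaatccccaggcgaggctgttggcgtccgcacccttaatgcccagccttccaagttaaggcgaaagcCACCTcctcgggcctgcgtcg
Chd4, chr6:125095731-125095980, plus strand: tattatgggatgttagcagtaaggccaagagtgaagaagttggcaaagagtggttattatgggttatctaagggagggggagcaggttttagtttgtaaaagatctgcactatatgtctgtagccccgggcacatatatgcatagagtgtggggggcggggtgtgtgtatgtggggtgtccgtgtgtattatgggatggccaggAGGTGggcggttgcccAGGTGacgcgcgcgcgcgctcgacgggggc
Rbbp4, chr4:129335371-129335620, minus strand: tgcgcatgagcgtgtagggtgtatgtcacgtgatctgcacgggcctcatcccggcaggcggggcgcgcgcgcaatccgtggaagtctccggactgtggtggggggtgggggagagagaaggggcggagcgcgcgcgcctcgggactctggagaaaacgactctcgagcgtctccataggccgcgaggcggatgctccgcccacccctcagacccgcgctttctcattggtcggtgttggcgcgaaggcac

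The Zeb2 window held 1 CACCT and the Chd4 window 2, of which 1 was a CACCTG, while Rbbp4 had neither. Outside chromosome 18, the promoter table had 13 windows for 8 of the members. CACCT was in 7 of these windows, from 4 members, and CACCTG in 2 overlapping windows of Chd4. In all 32851 windows of the table, 46.0% held CACCT and 17.2% CACCTG. The number for the members lay near that background, and a match says only that the letters are present.

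Sex-linked genes separated the groups. Xist, the RNA that silences 1 X chromosome in female cells, lay between 0.331 and 0.515 FPKM in the controls and was between 142 and 147 FPKM in cKO. Y-linked Eif2s3y lay between 34.4 and 37.2 FPKM in the controls and was between 0.0270 and 0.108 FPKM in cKO, so in all comparisons that follow sex and genotype cannot be told apart. All 10 members are autosomal. Library sums ranged from 497542 to 524474 FPKM, with read totals not given in the sources used here. Values were tested as log2(FPKM + 1) with limma over the 13612 loci that reached 1 FPKM in at least 3 libraries, and a locus was called at a Benjamini-Hochberg adjusted p of at most 0.05. Across loci, log2 values correlated at 0.952 to 0.959 within groups and at 0.942 to 0.956 between them, with loci not being independent replicates. Granule, Purkinje and Bergmann glia markers were present in all 6 libraries, as the cerebellar label requires.

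Zeb2, the deleted gene, was lower in every cKO library and was still clearly detected. Its locus (ENSMUSG00000026872, GRCm38 chromosome 2, 44983632 to 45117395, minus strand) read 11.4, 9.52 and 7.995 FPKM in controls 1 to 3. It read 6.19, 3.89 and 5.81 FPKM in cKO 1 to 3. No cKO value reached a control value, and cKO 2 was the lowest of the 6 libraries. Relative to the control mean, the cKO libraries stood at 64.2%, 40.3% and 60.2%. A value per locus does not separate Zeb2 transcripts with and without the floxed exon, nor reads of Mir5129. The log2 fold change of FPKM + 1 was -0.77 (SE 0.18, 95% interval -1.18 to -0.35). The limma adjusted p was 0.107, so the difference did not pass. The exact two-sided permutation p was 0.1, the smallest that 3 against 3 can give, so that test could not reach 0.05 with any values. In a fit without small-RNA loci, the limma adjusted p was 0.0466 (range over all alternatives 0.0466 to 0.312).

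Zeb2 is also expressed outside the cerebellar glial lineage, for example in microglia, which hGFAP-cre does not target. The 9 microglia markers summed to 56.4 to 59.0 FPKM in the controls, against 70.2 to 77.5 FPKM in cKO. All 9 had fitted differences above 0, whereas 53.0% of tested loci were below 0. By limma 1 of the 9 passed (Csf1r), beside 0.242% of tested loci called higher, and 4 passed in the fit without small-RNA loci. An unadjusted p under 0.05 was found for 8 of the 9, beside 7.82% of tested loci with higher values in cKO. Groups were apart in 8 of the 9, all higher in cKO, beside 10.3% of tested loci. The 6 oligodendrocyte precursor markers summed to 111 to 145 FPKM in the controls, against 196 to 220 FPKM in cKO, and the transcription factor gene Olig1 carried most of that sum. Olig1 was the 1 of the 6 that passed, at a mean of 72.6 FPKM in the controls, against 147 FPKM in cKO (limma adjusted p = 0.0231, range over alternatives 0.00196 to 0.167). Without Olig1 the other 5 summed to 48.9 to 59.7 FPKM in the controls, against 52.9 to 65.9 FPKM in cKO, so the groups overlapped. Among these 5, Olig2 and Cspg4 had fitted differences above 0, and Pdgfra, Sox10 and Gpr17 had log2 fold changes of -0.29, -0.40 and -0.88. The part of these cells in the Zeb2 value was not tested. In whole tissue, fewer cells of a type and less RNA per cell cannot be told apart.

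Bergmann glia markers differed in how they followed Zeb2 across libraries. Gdf10, a BMP-type growth factor, read 124, 120 and 99.6 FPKM in the controls, against 74.9, 19.9 and 69.3 FPKM in cKO (limma adjusted p = 0.241). Slc1a3, the glutamate transporter GLAST, read 302, 260 and 244 FPKM in the controls, against 206, 92.9 and 182 FPKM in cKO (limma adjusted p = 0.221). Neither passed. In both genes, as in Zeb2, the order of libraries within each group was the same and cKO 2 was lowest. Gpr37l1 and Hopx, described below, shared the full Zeb2 order in the controls only, and their lowest value was also in cKO 2. That library also had the highest sum of the 7 meningeal markers, at 61.2 FPKM, against 31.6 and 16.3 FPKM in cKO 1 and cKO 3 and 7.05 to 27.1 FPKM in the controls. All 7 had fitted differences above 0 and 0 passed by limma. Groups were apart in 2 of the 7, both higher in cKO, beside 10.3% of tested loci. The part of meningeal cells in the values of cKO 2 was not tested. Gpr37l1, a glial receptor, fell, reading 1.44, 1.32 and 1.59 FPKM in cKO 1 to 3 after 6.93, 5.25 and 4.60 FPKM in the controls (limma adjusted p = 0.011, range over alternatives 0.000704 to 0.0812). Slc4a4, a bicarbonate transporter, rose to between 148% and 174% of its control mean (limma adjusted p = 0.0336, range over alternatives 0.0059 to 0.166). The summed level of the 7 markers was 2043 to 2117 FPKM in the controls, against 1831 to 1969 FPKM in cKO. Most of that sum was Fabp7, a fatty acid binding protein gene of radial glia, whose cKO mean was 100.2% of control. Without Fabp7 the other 6 summed to 459 to 546 FPKM in the controls, against 232 to 413 FPKM in cKO. Slc1a3 and Gdf10 carried most of that fall. Hopx and Ptprz1 had overlapping groups, with cKO means at 94.7% and 101.6% of control. Of the 7 markers, 3 had fitted differences above and 4 below 0.

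**Figure D1:**
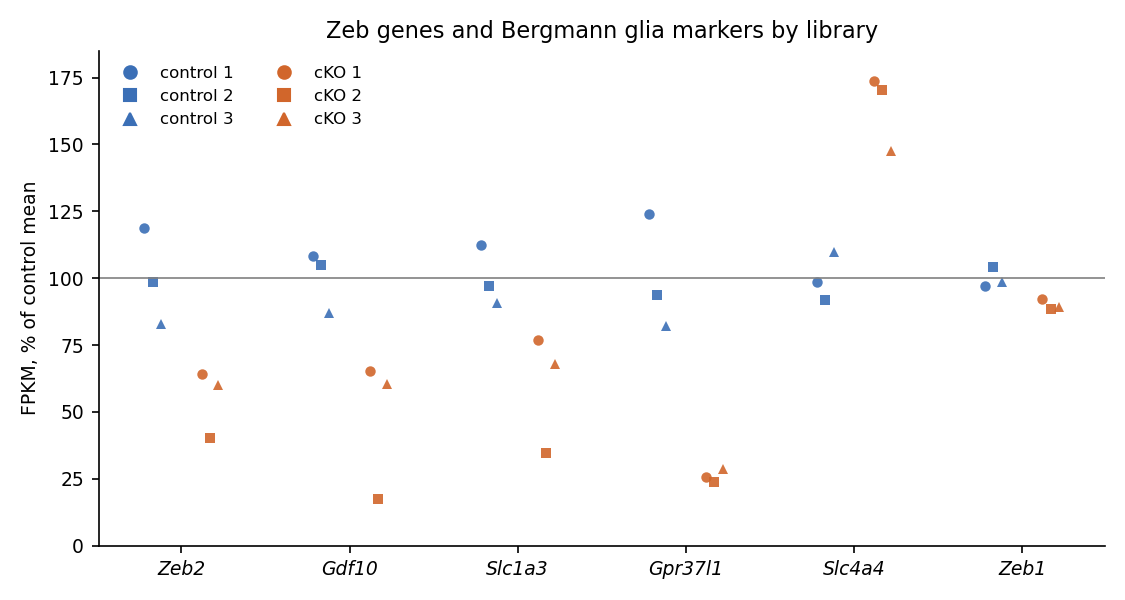
FPKM of each library as a percentage of the control mean (y axis) for Zeb2, 4 Bergmann glia markers and Zeb1 (x axis). Blue points are controls and orange points cKO, with 1 marker shape per replicate number, and the line marks 100%. Zeb2, Gdf10 and Slc1a3 share the low cKO 2 library, at 40.3%, 17.3% and 34.6%, whereas Zeb1 lies between 88.4% and 92.0% in cKO.

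Zeb2os, an RNA transcribed from the opposite strand inside the 5′ part of Zeb2 (GRCm38 chromosome 2, 45110707 to 45114087), had overlapping groups. It read 3.39, 4.47 and 3.79 FPKM in the controls, against 3.79, 2.74 and 3.75 FPKM in cKO (log2 fold change -0.15, 95% interval -0.45 to 0.16, limma adjusted p = 0.606). With the strand setting not given in the sources used here, reads of Zeb2 and Zeb2os in shared positions cannot be told apart. None of the other 4 tested neighbours of Zeb1 and Zeb2 passed, and their groups overlapped.

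Zeb1, the paralogue left intact, was not higher in cKO. It read 26.6, 28.6 and 27.1 FPKM in the controls, against 25.2, 24.2 and 24.4 FPKM in cKO. The groups did not overlap, with all cKO values slightly below the controls, at 89.8% of the control mean. The log2 fold change was -0.15 (SE 0.05, 95% interval -0.27 to -0.03, limma adjusted p = 0.207), which did not pass. The interval, taken by itself for this gene, holds only values below 0.

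Within a library FPKM is scaled by length, so the Zeb paralogues can be set side by side. The limits of the Zeb2 value, which separates neither Mir5129 reads nor transcripts without the floxed exon, hold for these ratios and sums too. Zeb1 was the more abundant in all 6 libraries, at 2.32, 3.00 and 3.38 times the Zeb2 level in the controls, against 4.07, 6.23 and 4.20 times in cKO. The log2 ratio averaged 1.52 ± 0.28 in the controls, against 2.25 ± 0.34 in cKO (SD, n = 3 each), a difference of 0.72 with groups apart (exact two-sided permutation p = 0.1, the smallest possible; 0.4 adjusted over the 4 ratios tested). Zeb2 made up 22.8% to 30.1% of the summed Zeb level in the controls, against 13.8% to 19.7% in cKO. That sum itself was 35.1 to 38.1 FPKM in the controls, against 28.1 to 31.4 FPKM in cKO.

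The members spanned a wide range of levels, and the Zeb genes were the least abundant. By control mean, the order from the top was Ctbp1 at 145 ± 6.44 FPKM, Hdac2 at 111 ± 7.56, Chd4 at 76.9 ± 2.98, Rbbp4 at 58.6 ± 2.73 and Mta1 at 49.4 ± 1.26 FPKM (SD, n = 3). Mta2 followed at 46.7 ± 1.22, Hdac1 at 33.4 ± 1.26, Ctbp2 at 28.5 ± 1.39, Zeb1 at 27.4 ± 1.06 and Zeb2 at 9.65 ± 1.73 FPKM. Neighbours in this order had control ranges that did not overlap, except Ctbp2 and Zeb1. In cKO, Mta1 with Mta2, Hdac1 with Ctbp2, and Ctbp2 with Zeb1 overlapped. By mean level, Ctbp1 stood at the 96.0th percentile of tested loci and Zeb2 at the 33.4th.

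**Figure D2:**
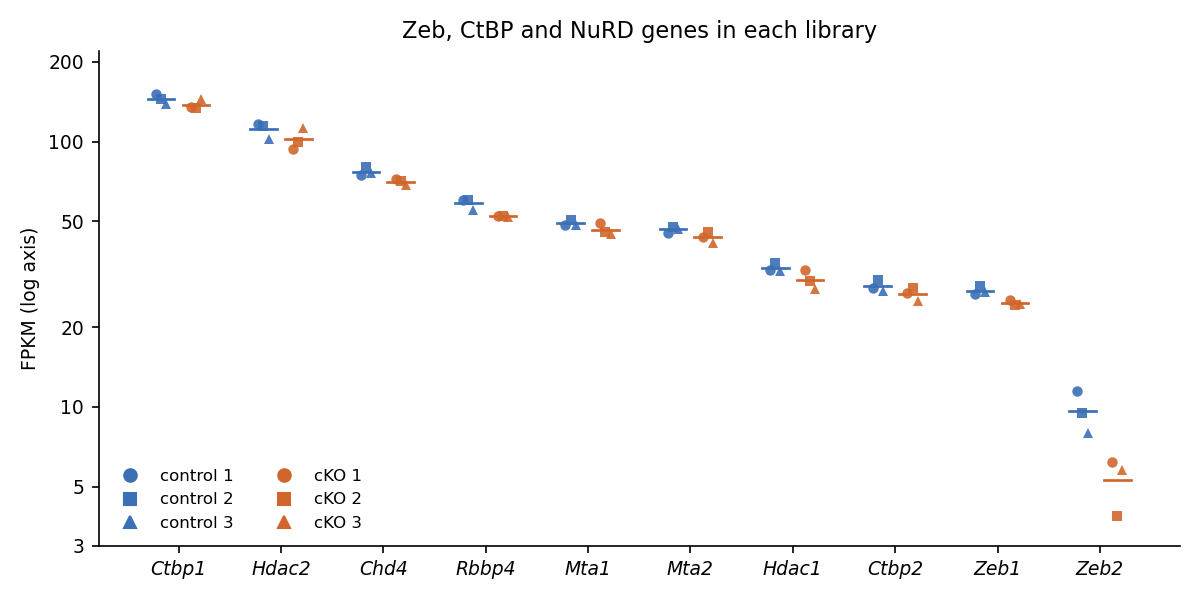
FPKM on a log axis (y axis) for the 10 members (x axis), ordered by control mean. Points are single libraries, blue for control and orange for cKO with 1 marker shape per replicate number, and short lines are group means; Zeb2 stands apart in level and in the distance between the groups, and the cKO means of the remaining genes lie from 89.2% of control (Rbbp4) upward.

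CtBP genes, which link Zeb proteins to histone-modifying enzymes, had overlapping groups. Ctbp1 read 152, 145 and 139 FPKM in the controls, against 135, 134 and 145 FPKM in cKO (log2 fold change -0.07, 95% interval -0.21 to 0.07). Ctbp2 read 28.1, 30.1 and 27.4 FPKM in the controls, against 26.8, 28.1 and 25.1 FPKM in cKO (log2 fold change -0.09, 95% interval -0.24 to 0.05). Neither passed (limma adjusted p = 0.565 and 0.485). The ratio of Ctbp1 to Ctbp2 was 4.81 to 5.40 in the controls, against 4.77 to 5.75 in cKO, without separation of the groups (exact permutation p = 0.9).

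The deacetylases of NuRD had overlapping groups as well. Hdac1 read 32.8, 34.9 and 32.6 FPKM in the controls, against 32.8, 29.7 and 27.9 FPKM in cKO, so cKO 1 matched the controls and cKO 2 and cKO 3 lay below them (log2 fold change -0.15, 95% interval -0.31 to 0.02). Hdac2 read 117, 114 and 103 FPKM in the controls, against 93.7, 99.4 and 113 FPKM in cKO, where cKO 3 lay inside the control range (log2 fold change -0.13, 95% interval -0.33 to 0.08). The low cKO libraries were thus different for the 2 deacetylases, and the log2 ratio of Hdac1 to Hdac2 ran from -2.02 in cKO 3 to -1.51 in cKO 1, around a control range of -1.83 to -1.66. Neither gene passed (limma adjusted p = 0.333 and 0.492).

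Chd4, the main nucleosome-remodelling helicase of NuRD, read 74.6, 80.2 and 75.8 FPKM in the controls, against 72.5, 71.1 and 68.5 FPKM in cKO. These groups did not overlap, with cKO lower (log2 fold change -0.12, SE 0.05, 95% interval -0.24 to 0.00, limma adjusted p = 0.289). Rbbp4, a histone-binding subunit that NuRD shares with other complexes, read 60.3, 60.1 and 55.5 FPKM in the controls, against 52.6, 52.2 and 52.1 FPKM in cKO. Its cKO values had an SD of 0.247 FPKM and lay below every control (log2 fold change -0.16, SE 0.05, 95% interval -0.28 to -0.04, limma adjusted p = 0.186). Rbbp4 and Hdac1 are near neighbours on chromosome 4 of GRCm38 (129307100 to 129335370 and 129516104 to 129542713).

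The scaffold genes overlapped between groups. Mta1 read 48.6, 50.8 and 48.7 FPKM in the controls, against 49.1, 45.5 and 44.9 FPKM in cKO (log2 fold change -0.09, 95% interval -0.21 to 0.04). Mta2 read 45.4, 47.8 and 46.8 FPKM in the controls, against 43.7, 45.6 and 41.6 FPKM in cKO (log2 fold change -0.10, 95% interval -0.22 to 0.03). The 2 genes stayed close to equal in level, with a ratio of 1.04 to 1.07 in the controls, against 0.998 to 1.13 in cKO. Neither passed (limma adjusted p = 0.454 and 0.386).

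Counted together, 0 of the 10 members passed over all loci by limma, against a background of 0.331% of tested loci called lower and 0.242% called higher. Before adjustment, 3 members (Zeb2, Rbbp4 and Zeb1) had a p under 0.05, all with lower values in cKO, as had 9.79% of tested loci in that direction. Groups did not overlap in 4 members, all lower in cKO (Zeb2, Zeb1, Chd4 and Rbbp4), as in 13.6% of tested loci. All 10 fitted differences were below 0, beside 53.0% of tested loci, with a median of -0.12 beside -0.01. Zeb2 is in each of these counts and in the median, and as the deleted gene its direction was set by the design. Each of the 10 stayed below 0 under every alternative fit, 3 scalings of the libraries included. These fits reuse the same libraries and are no independent support. Without small-RNA loci in the fit, 1 of the 10 passed (Zeb2), against 1.47% of loci called lower. For the 9 members other than Zeb2, the 95% intervals of the fold change of FPKM + 1 reached down to 0.796 (Hdac2) and up to 1.05 (Hdac2).

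**Figure D3:**
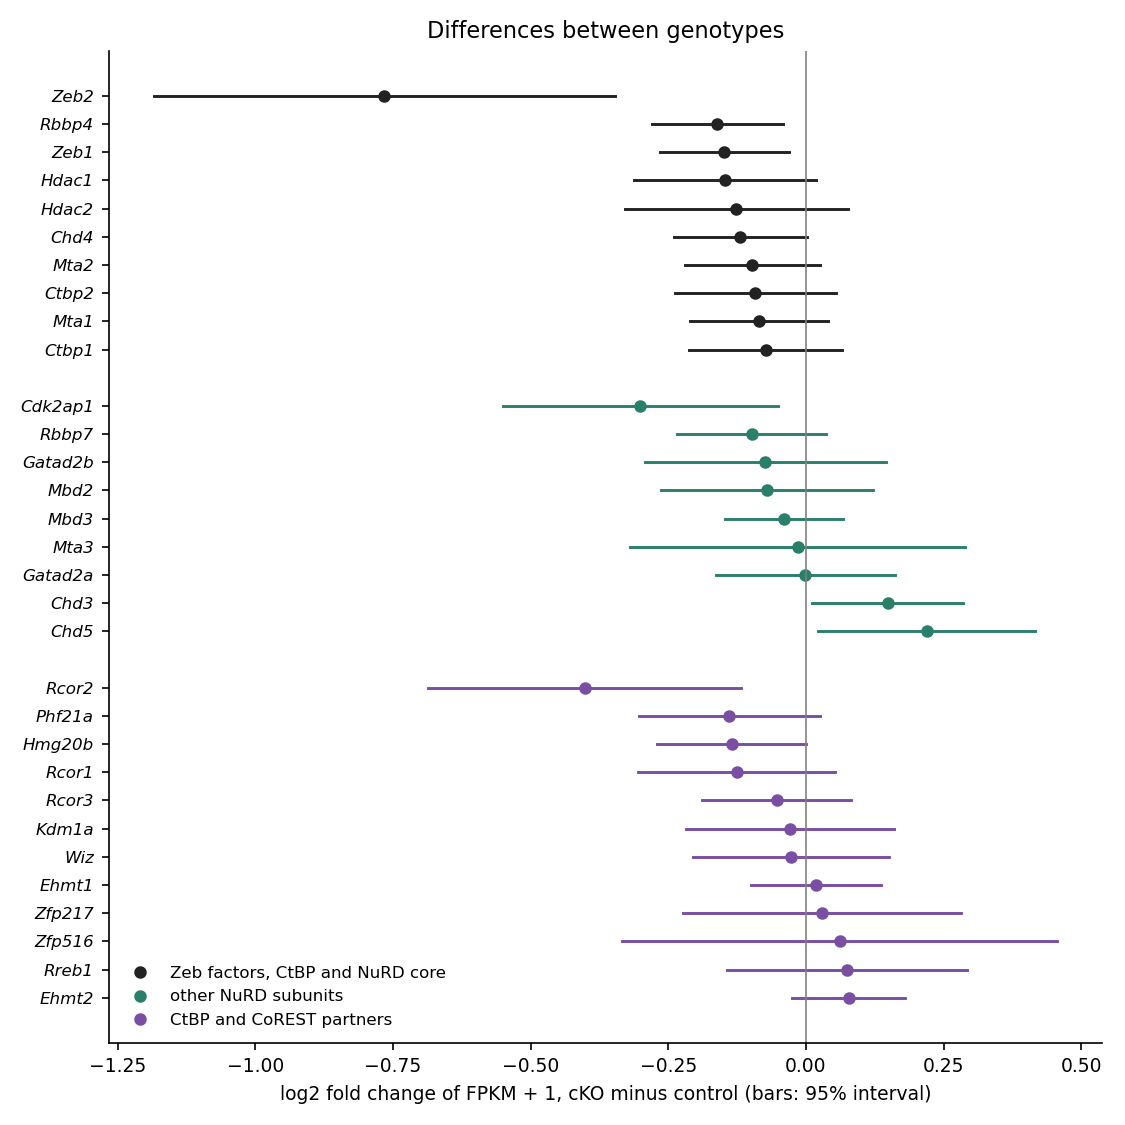
Log2 fold change of FPKM + 1, cKO minus control (x axis), for the 10 members (black), 9 other NuRD subunits (green) and 12 CtBP and CoREST partners (purple). Points are limma estimates and bars are 95% intervals, unadjusted; Zeb2 lies farthest from 0 at -0.77, followed by Rcor2 at -0.40 and Cdk2ap1 at -0.30, and Chd3 and Chd5 lie above 0.

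Of the 9 other NuRD subunits, 0 passed by limma. An unadjusted p under 0.05 was found for 3, in different directions. Chd3 and Chd5, helicases that can take the place of Chd4 in NuRD, had higher values in cKO (7.82% of tested loci had such a p in that direction). Chd3 read 65.2, 72.7 and 67.6 FPKM in the controls, against 78.7, 75.5 and 73.7 FPKM in cKO (log2 fold change 0.15, 95% interval 0.01 to 0.29, limma adjusted p = 0.256). Chd5, which is best known from neurons, read 17.1, 20.3 and 21.5 FPKM in the controls, against 23.0, 22.7 and 23.0 FPKM in cKO (log2 fold change 0.22, 95% interval 0.02 to 0.42, limma adjusted p = 0.246). Both had groups that did not overlap, as had 10.3% of tested loci with higher values in cKO.

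Chd4 and its paralogues therefore lay on opposite sides of their controls. Within a library, Chd4 was 1.10 to 1.14 times as abundant as Chd3 in the controls, against 0.921 to 0.941 times in cKO. The log2 ratio was 0.17 ± 0.03 in the controls, against -0.10 ± 0.02 in cKO (SD, n = 3 each), a difference of -0.27 between the means. The log2 ratio of Chd4 to Chd5 was 1.98 ± 0.15 in the controls, against 1.63 ± 0.04 in cKO (SD, n = 3 each). These 2 ratios were chosen after their values were seen and were not tested. Beside them, the 7 granule lineage markers summed to 722 to 826 FPKM in the controls, against 625 to 705 FPKM in cKO. All 7 fitted differences were below 0, but 1 of the 7 passed by limma (Mfap4, an extracellular matrix gene) and Zic2 was at -0.02. Mfap4, at a mean of 69.9 FPKM in the controls, against 18.5 FPKM in cKO, carried a large part of the difference between the sums. Groups did not overlap in 2 of the 7, both lower in cKO, as in 13.6% of tested loci. The 7 Purkinje markers summed to 603 to 625 FPKM in the controls, against 648 to 688 FPKM in cKO, with 6 above 0 and 0 passing. Of the 7, 5 had groups apart with higher values in cKO and 1 with lower values, beside 10.3% and 13.6% of tested loci. The Purkinje marker with the smallest p, Lhx5, was the one below 0 (log2 fold change -0.27, limma adjusted p = 0.104). The part of these cells in the ratios was not tested.

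**Figure D4:**
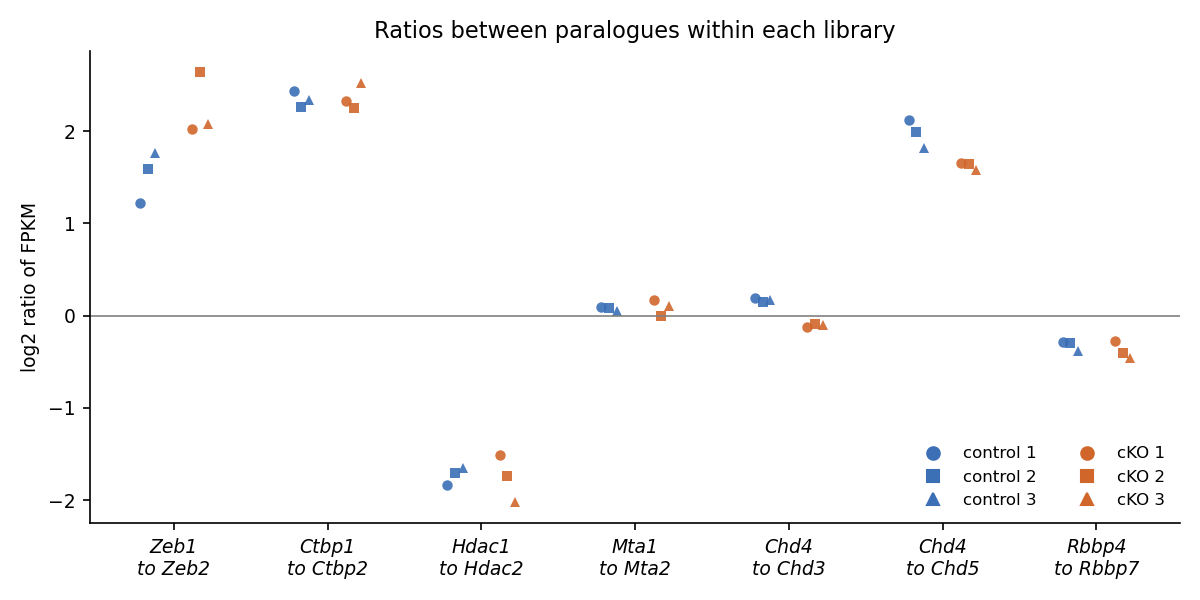
Log2 ratio of FPKM between paralogues in each library (y axis) for 7 pairs (x axis), blue for control and orange for cKO with 1 marker shape per replicate number. Zeb1 to Zeb2 is higher in cKO and Chd4 to Chd3 and Chd4 to Chd5 are lower without overlap, while the groups overlap for Ctbp, Hdac, Mta and Rbbp pairs.

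Cdk2ap1, a small NuRD-associated protein that also binds Cdk2, had the lowest fitted difference of the other subunits. It read 231, 232 and 207 FPKM in the controls, against 158, 182 and 206 FPKM in cKO, where cKO 3 lay just under control 3 (log2 fold change -0.30, 95% interval -0.55 to -0.05, limma adjusted p = 0.222). Rbbp7, the X-linked paralogue of Rbbp4, was at 73.1 ± 0.873 FPKM in the controls, against 68.3 ± 4.15 FPKM in cKO (SD, n = 3). In Cdk2ap1 and Rbbp7, 2 of the 9, the groups did not overlap, with lower values in cKO, as in 13.6% of tested loci. Mbd3 was at 74.0 ± 1.36 and 72.0 ± 1.65 FPKM and Mbd2, which binds methylated DNA, at 14.1 ± 1.25 and 13.3 ± 0.974 FPKM. Mta3, Gatad2a and Gatad2b had overlapping groups, at 15.2 ± 2.42, 15.8 ± 0.729 and 21.7 ± 1.65 FPKM in the controls. The median over the 9 was -0.04 (2 above and 7 below 0), and 0.011 without cKO 3.

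Among the 12 partners of CtBP and CoREST, a complex that pairs the demethylase Kdm1a with Hdac1 or Hdac2, 0 passed by limma and 1 had a p under 0.05 before adjustment. That gene was Rcor2, a CoREST scaffold known from neural progenitors and stem cells, at 65.4, 74.5 and 60.5 FPKM in the controls, against 42.3, 54.1 and 54.9 FPKM in cKO. Its groups did not overlap, and the log2 fold change was -0.40 (SE 0.12, 95% interval -0.69 to -0.12, limma adjusted p = 0.173). Over all tested loci, 9.79% had such an unadjusted p with lower values in cKO. The other scaffolds Rcor1 and Rcor3 had overlapping groups, at 10.6 ± 0.633 and 13.6 ± 0.419 FPKM in the controls, against 9.61 ± 0.781 and 13.1 ± 0.654 FPKM in cKO (SD, n = 3).

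Kdm1a itself was at 62.0 ± 4.03 FPKM in the controls, against 60.8 ± 5.33 FPKM in cKO (log2 fold change -0.03, 95% interval -0.22 to 0.16). The histone H3K9 methyltransferases differed little: Ehmt2 was at 77.6 ± 0.957 and 81.9 ± 1.47 FPKM with groups apart, and Ehmt1 at 22.5 ± 0.802 and 22.8 ± 0.565 FPKM. Hmg20b, an HMG-box subunit of CoREST, was at 21.6 ± 1.32 and 19.5 ± 0.329 FPKM, also without overlap. Groups were thus apart in 2 of the 12 with lower values in cKO (Rcor2 and Hmg20b) and in 1 with higher values (Ehmt2). Over all tested loci the shares were 13.6% and 10.3%. Phf21a, Wiz, Zfp217, Zfp516 and Rreb1 had overlapping groups and log2 fold changes between -0.14 and 0.07. The median over the 12 was -0.03 (5 above and 7 below 0). It was 0.035 when only the 4 libraries whose labels carry a description were used, and 0.025 without cKO 3.

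Corepressors that use other class I deacetylases or that share Hdac1 and Hdac2 gave no call either: 0 of 16 passed by limma and 0 had a p under 0.05 before adjustment. Of these, 3 fitted differences were above and 13 below 0, with a median of -0.08. The smallest p belonged to Hdac3, the deacetylase of the NCoR complex, at 69.7 ± 0.986 FPKM in the controls, against 63.9 ± 3.82 FPKM in cKO (SD, n = 3). Sap130 and Brms1, subunits of Sin3 complexes, and Sin3b, their scaffold, followed with log2 fold changes of -0.10, -0.19 and -0.07. In Hdac3 and Sin3b, 2 of the 16, the groups did not overlap, with lower values in cKO, as in 13.6% of tested loci.

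Genes that act beside or below the Zeb factors differed in whether they passed the detection filter. All 10 transcription and splicing factors linked with Zeb in epithelial-mesenchymal transition (the Snai, Twist, Ovol, Grhl2 and Esrp genes) failed it, and none exceeded 0.859 FPKM in any library. Of 9 genes described elsewhere as Zeb2 targets, 7 were tested and 0 passed, with a median log2 fold change of -0.01. The smallest p among them was that of Smad7, an inhibitor of TGF-beta and BMP signalling, at 5.40 ± 0.580 FPKM in the controls, against 6.23 ± 0.212 FPKM in cKO (log2 fold change 0.18, 95% interval -0.01 to 0.37). Ntf3, Unc5b and Id2 had log2 fold changes of -0.17, -0.08 and 0.07. Cdh1, the E-cadherin gene that Zeb proteins repress in epithelia, failed the filter at 0.00801 to 0.0394 FPKM in the controls, against 0.0617 to 0.131 FPKM in cKO, values too low to be tested.

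Loci whose profile over the 6 libraries was most like that of Zeb2 were taken by Pearson correlation of log2(FPKM + 1) among 12050 candidates, as a description without a test, since the best of so many will be high in any case and all share the 2 groups. They were Vps37b, an ESCRT-I subunit (r = 0.998), Opcml, a cell adhesion protein (0.997), and Srebf1, a regulator of lipid synthesis (0.997). Vps37b read 62.8, 58.8 and 54.4 FPKM in the controls, against 49.3, 39.7 and 47.0 FPKM in cKO. For Zeb1 they were the spliceosome gene Eftud2 (r = 0.993), Kntc1, a kinetochore gene (0.993), and Kif4, an X-linked mitotic kinesin (0.992). Kntc1 read 4.53, 5.71 and 4.82 FPKM in the controls, against 3.64, 3.43 and 3.29 FPKM in cKO.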

How the data were processed

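TruSeq RNA libraries of 6 cerebellum samples were sequenced by the authors, per the labels' protocols. Per the submitters' processing notes they used CASAVA, TopHat and Cufflinks with build mm10. The deposited values were read as FPKM from the Cufflinks locus names and the values, as no label states the unit. For tool versions, annotation, strandedness and library scaling, details were not given in the sources used here. Libraries are named by their titles. The description of cKO 1 carries the number 3 instead.

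From the deposited FPKM, log2(FPKM + 1) was tested with limma 3.58.1 (R 4.3.3, trend, two-sided, Benjamini-Hochberg over the 13612 loci reaching 1 FPKM in 3 or more libraries, threshold 0.05) and, for Zeb2 and paralogue ratios, with an exact permutation test (scipy 1.17.1). The fit was tested on simulated data. As the labels name no separate animals, the p-values cover only the spread among these libraries, which may be technical. Steps between values under 0.1 FPKM split the libraries into 2 processing sets, control 1 with cKO 3 and the other 4 together, each with both genotypes.

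The members and gene lists were chosen with earlier results of these data known, and lists were written by hand from textbook knowledge. All members, all genes of the 2 main partner lists (apart from 2 genes of the CtBP and CoREST list, which are not reported here and enter none of its counts) and up to 4 genes with the smallest p of any other list are named. The Snai, Twist, Ovol, Grhl2 and Esrp genes, Cdh1, Fabp7, Hopx, Ptprz1, Zic2, Sox10 and Cspg4 fall outside this rule and were chosen with their values seen. Alternatives covered the fit (replicate block, deposit or processing set as covariate), single libraries left out, pseudocounts, filters, scalings, small-RNA or X and Y loci left out, variance estimation and the threshold. Added after seeing the data were marker sums without the most abundant gene of the list, the median over the members and the Chd4 ratios. Coordinates are those of GENCODE M21 (GRCm38), and promoter and microRNA sequences those of RefSeq.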

Additional observations from a re-analysis of the deposited data

How the results depend on the processing

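The number of loci called over the whole table was 78. It was 15 with the replicate number as a block, 22 with the deposit as covariate (the first deposit being the 4 libraries whose labels carry a description), 30 in the processing set of 4 libraries, 28 without a filter, 30 at a mean of at least 5 FPKM, 325 with small-RNA loci left out, 336 with robust variance, 409 at a threshold of 0.1 and 20 at 0.01. Leaving out 1 library gave 21 to 55.

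Of the members, 0 were called in every alternative except with small-RNA loci left out, where Zeb2 passed (1 member called, log2 fold change -0.77, limma adjusted p = 0.0466). With the replicate block the Zeb2 log2 fold change was also -0.77 (limma adjusted p = 0.188). The replicate numbers share only a number: deviations from group means correlated at -0.027, 0.037 and 0.049 in the 3 same-numbered pairs, and not every library correlated best with its own number. Zeb2 ranged from -0.88 to -0.59 with 1 library left out, and the Zeb1 to Zeb2 log2 ratio difference from 0.53 to 0.84.

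The median over other NuRD subunits ran from -0.050 to 0.011 with 1 library left out. That of CtBP and CoREST partners ran from -0.063 to 0.025, and it was 0.035 in the first deposit only. The medians of the members and of the other class I corepressors moved by less than the spread between libraries. Precision is limited by 3 libraries a group and by an unknown read depth.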
